A study of Capra hircus with 6 samples.

Results

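The genes described here serve the lysosome and autophagy. They were found by gene name in the expression table of goat intramuscular preadipocytes, precursors of the fat cells within muscle. Of 51 listed genes, 38 had a row under their own symbol among the 27271 genes of the files, and 31 of these had enough reads to be tested. The cells were primary cultures from the longissimus dorsi of 3-day-old Jianzhou goats, carried to the third passage. The NC groups (3 libraries) received a negative control siRNA and the Si-LIPG groups (3 libraries) an siRNA against LIPG, the endothelial lipase. All were then given induction medium with 50 μmol/L oleic acid for 48 h, so that the fatty acid load was shared by both groups. The labels give the genotype as WT or LIPG knock down, and no stable line or deletion was used. The methods of the study call its replicates biological, without saying for the sequenced samples whether these are separate goats, isolations or wells, so the p values measure the spread between the 3 libraries of a group.

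Lysosomes are acidic organelles in which hydrolases break down proteins, glycans and lipids. The enzymes are carried there by sorting receptors, work with helper proteins in the lumen, and depend on a proton pump, the V-ATPase, that acidifies the compartment. Autophagy wraps cytoplasm, organelles or lipid droplets in a double membrane and delivers them to the lysosome, and the transcription factors TFEB, TFE3 and MITF switch many genes of both systems on together. In fat cells the same route is known for the breakdown of lipid droplets by lysosomal acid lipase, the product of LIPA.

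Few reads stood behind each value, with 524776 to 1051230 reads counted on genes per library. Between 0.997% and 2.88% of the 36451898 to 52638817 reads of a library were counted in this way, with means of 1.31% ± 0.279 for the NC groups and 2.44% ± 0.566 for the Si-LIPG groups (SD, n = 3 each, p = 0.1 in a two-sided exact permutation test, which cannot go lower with 3 against 3). Reads assigned to no gene feature made up 91.6% to 93.7% of a library, and reads not aligned 0.909% to 1.22%. LIPG itself had at most 2 reads in any library, so the knockdown could not be checked in these libraries. The paper reports lower LIPG by RT-qPCR and by Western blot with the siRNA it used. The mitochondrial gene ND6 had 28.1 to 44.3 times the FPKM of its neighbour ND5 in the NC libraries against 14.8 to 24.7 times in the Si-LIPG libraries. ND6 is the only protein gene read from the other strand of the mitochondrial genome, the protocol of the libraries keeps the strand, and the strand setting of the counting is not given in the sources used here. Whether the reads counted on the lysosome and autophagy genes came from their own transcripts or from the opposite strand was not tested. Markers of preadipocytes and fibroblasts had a summed TMM-normalized level of 22250 to 30190 CPM in the NC libraries against 31380 to 37710 CPM in the Si-LIPG libraries, led by COL1A2. COL1A2 and COL1A1 had log2 fold changes of 0.32 and 0.28 (edgeR adjusted p = 0.691 and 0.732). Of the 10 tested markers of this list, 8 had a fitted fold change above 0 (80%, against 58.4% of all tested genes) and 2 below. LUM (1.71) and DCN (0.87) were higher, and ENG (-1.07) and THY1 (-0.38) were lower. The 8 macrophage markers, which matter here because macrophages are rich in lysosomes, had a summed level of 33.1 to 58.4 CPM and 22.0 to 37.2 CPM, with TYROBP, ITGAM and PTPRC at 0 in every library. The adipocyte list had 16.2 to 41.4 CPM and 16.1 to 34.2 CPM with LPL at 0, and the endothelial list had at most 7.21 CPM with KDR, TEK and CDH5 at 0. Myogenic markers were present at 976 to 1272 CPM and 930.6 to 1363 CPM, mostly as ACTC1, with MYMK at 0. The preadipocyte marker DLK1 was at 0 in every library.

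The 38 genes together had 495, 1307 and 1453 reads in NC 1, 2 and 3, against 2275, 3255 and 3564 in Si-LIPG 1, 2 and 3. NC 1 stood apart, with 11 of the 38 genes at 0 reads and 27 under 10 reads, while each Si-LIPG library had 1 gene at 0. As CPM of all reads in the files, the summed level was 9.40, 30.7 and 31.5 in NC 1, 2 and 3, and 47.4, 87.1 and 97.8 in Si-LIPG 1, 2 and 3. After TMM normalization, which scales libraries so that most genes do not change, it was 1605, 2354 and 2290 CPM in the NC libraries against 2567, 2652 and 2603 CPM in the Si-LIPG libraries. The groups did not overlap on either scale, but their means differed by a ratio of 3.24 on the first and of 1.25 on the second (p = 0.1 for both in a two-sided exact permutation test). The size of the difference depended on the scaling, and both scales are given where they differ. In cultures of mixed cells, fewer cells of a type and less RNA per cell cannot be told apart. The hydrolases took 22.0% to 24.3% of the reads of the 38 genes in the NC libraries and 24.3% to 28.8% in the Si-LIPG libraries. The 10 autophagy genes took 10.3% to 20.6% and 12.4% to 13.7%.

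**Figure D1:**
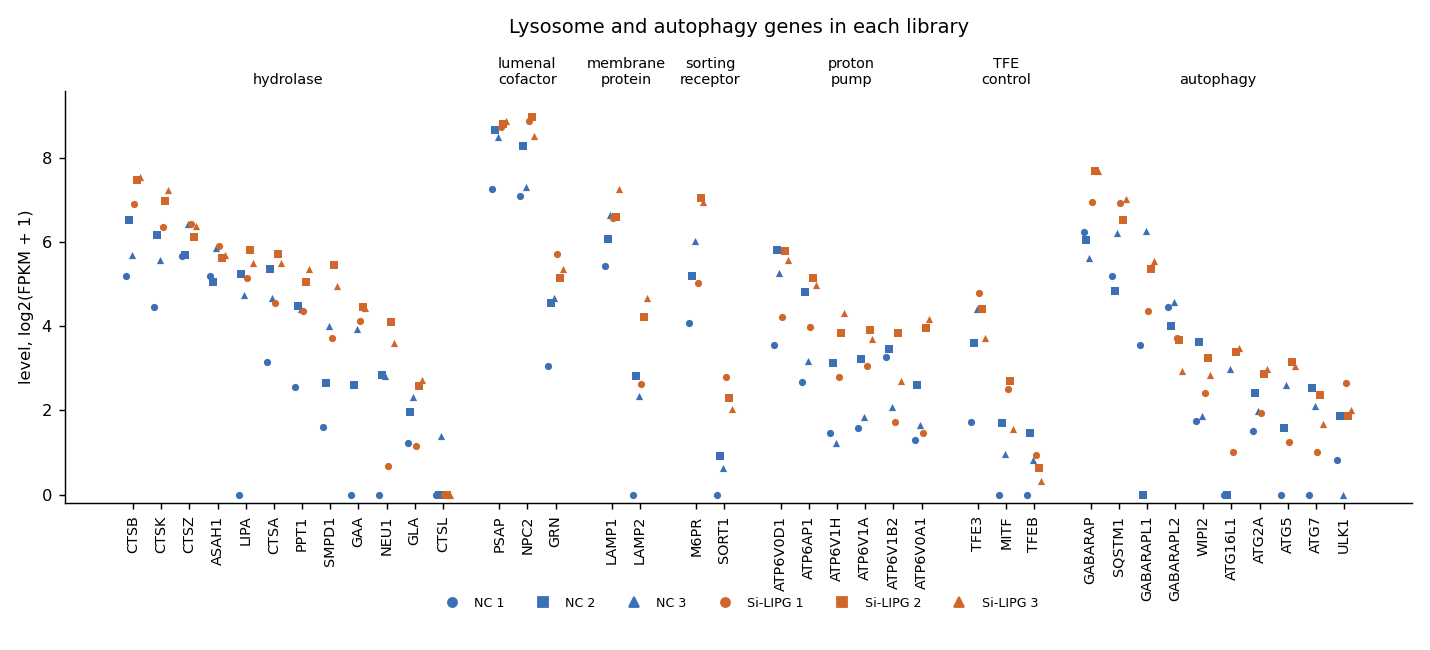
Level of each of the 38 genes as log2(FPKM + 1), by gene (horizontal axis, grouped by role) and library (blue NC, orange Si-LIPG; circle, square and triangle for replicates 1, 2 and 3). PSAP and NPC2 are the highest, CTSL and TFEB the lowest, and the NC 1 circles lie at 0 for 11 genes.

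Levels of different genes are compared as FPKM, in which reads are taken per length of the gene and per depth of the library. PSAP, the precursor of the saposins that help lysosomal enzymes to reach sphingolipids, was the highest of the 38 genes. Its FPKM was 152, 406.7 and 362 in NC 1, 2 and 3 and 427, 446 and 469.9 in Si-LIPG 1, 2 and 3, above 98.7% of the genes with a read or equal to them. PSAP alone took between 27.8% and 38.7% of the reads of the 38 genes. NPC2, which carries cholesterol within the lysosome, followed with an FPKM of 136, 310 and 158 in the NC libraries against 470, 502 and 369.9 in the Si-LIPG libraries, so that PSAP and NPC2 overlapped in level. The next in mean FPKM over the 6 libraries were GABARAP (121), CTSB (110), LAMP1 (92.1), CTSK (82.8), SQSTM1 (79.8), CTSZ (70.3) and M6PR (67.2), and the values of each overlapped with those of its neighbours in this order. The lowest was CTSL, which had 2 reads in NC 3 and 0 in the other libraries. TFEB, with 0 to 4 reads per library, was the lowest after it. The median FPKM was 27.4 over the 12 hydrolases, 7.95 over the 6 proton pump genes and 5.25 over the 10 autophagy genes.

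After TMM normalization, 1 of the 31 tested genes had an adjusted p under 0.05 (edgeR's quasi-likelihood test, Benjamini-Hochberg over all 6574 tested genes), and this was GABARAPL2, which fell in the Si-LIPG groups. That is 3.23%, where 6.51% of all tested genes passed, 5.54% as lower and 0.974% as higher. At the criterion of the study, an unadjusted p under 0.05 with a fold change over 1.5, there were 5 genes or 16.1%, against 20.7% of all tested genes. SORT1, LAMP2, CTSB and CTSK had higher values in the Si-LIPG groups and GABARAPL2 lower ones, where 7.83% of all tested genes met the criterion as higher and 12.9% as lower. The study, with DESeq2, reports more genes up than down at this criterion and names CCDC85B among the most upregulated. Here more genes were lower with edgeR, and CCDC85B had a log2 fold change of -2.29 (edgeR adjusted p = 0.0395). DESeq2, run here on the same counts, gave 1695 of the 14848 genes it tested an unadjusted p under 0.05. That total equals the one reported by the study. In this DESeq2 run GABARAPL2 was also lower (log2 fold change -1.54), and CTSB, CTSK, LAMP2 and SORT1 were also higher. The cause of the difference in direction was not tested. All directions given here take the group labels as given, and they were not checked against the gene lists of the study. Of the 31 genes, 12.9% met the criterion as higher and 3.23% as lower. These shares rest on 4 genes and 1 gene, and their difference from those of all tested genes was not tested. In none of the NC libraries did SORT1 reach the level set by the filter on low counts, the only such gene of the 31. Such genes were 3.23% of the 31 and 4.35% of all tested genes. SORT1 thus entered the test only because it was high in the Si-LIPG groups, so its p values are given as a description. All counts of the 31 genes given here include it. Without NC replicate 1, 0 of the 31 genes and 0 of all tested genes passed the adjusted threshold, and 5 met the criterion, CTSB, LAMP2, SORT1, GABARAP and GABARAPL2, against 18.1% of all tested genes. Without NC replicate 2 there were 8 at the criterion, against 22.6% of all tested genes. Without Si-LIPG replicate 2 or Si-LIPG replicate 3 there were 2, SORT1 and GABARAPL2, against 13.2% and 12.8%. The groups did not overlap in TMM-normalized CPM for 4 genes that were higher, CTSB, CTSK, GRN and SORT1 (12.9%, against 15.2% of all tested genes), and for GABARAPL2 as the only lower gene (3.23%, against 13.4%).

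**Figure D2:**
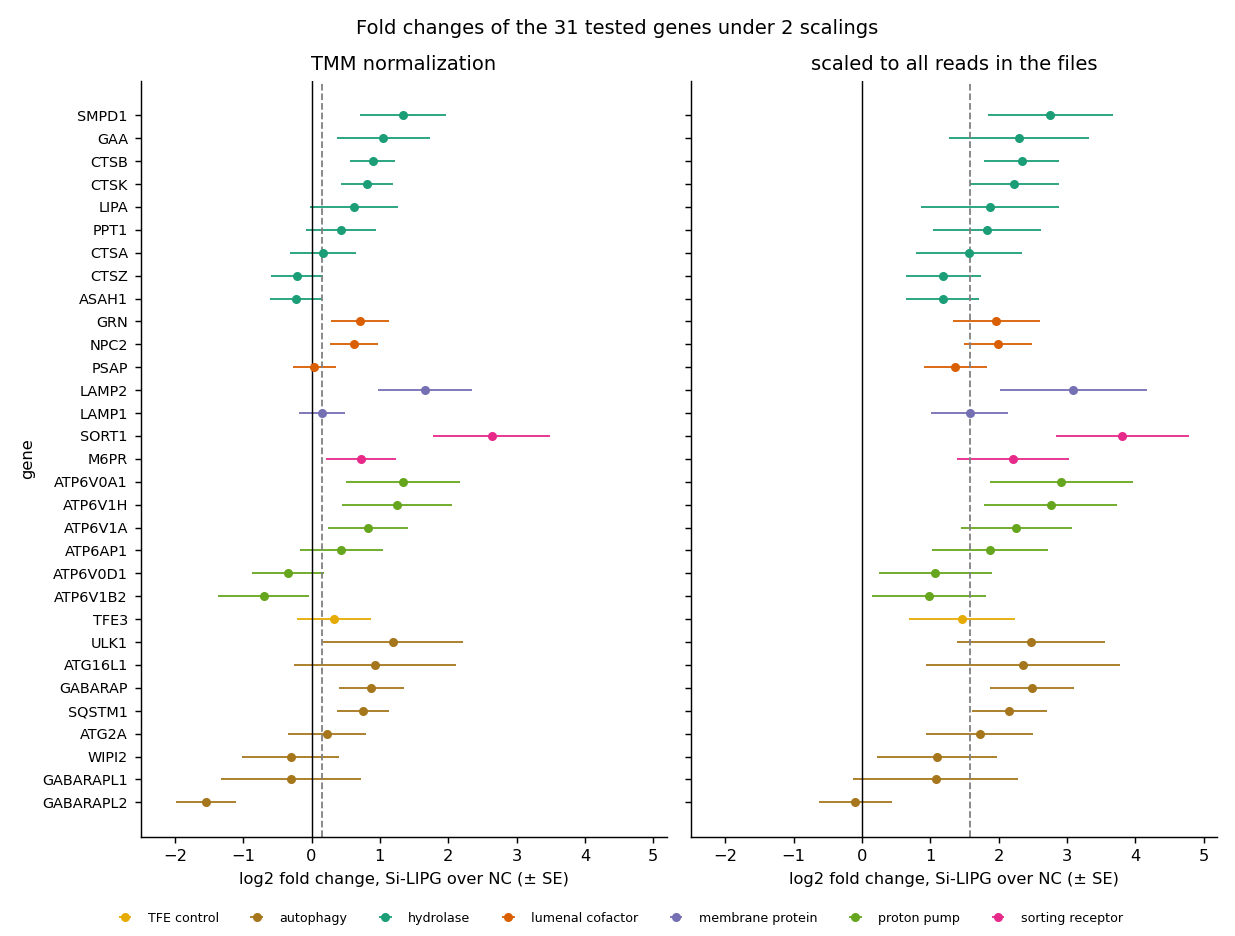
Log2 fold change of Si-LIPG over NC (horizontal axis, points, with bars of 1 standard error) for the 31 tested genes, coloured by role, after TMM normalization (left) and scaled to all reads in the files (right). The dashed line marks the median of all 6574 tested genes, 0.16 on the left and 1.58 on the right, and 24 genes on the left and 30 on the right lie above 0.

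The fitted fold change was above 0 for 24 of the 31 genes (77.4%), against 58.4% of all tested genes, and its median was 0.62 on the log2 scale against 0.16 over all tested genes. The median of the genes lay 0.46 above that of all tested genes, with a spread of 0.327 between libraries. This difference was above 0 in each alternative run, between 0.27 and 0.52, and it is a description of the list, which was not tested. When scaled to all reads, fitted fold changes were above 0 for 30 of the 31 genes, but they were above 0 for most genes of the table, whose median was then 1.58. On that scale 20 of the 31 genes lay above the median of all tested genes, and CTSB, NPC2, SORT1, SQSTM1 and GABARAP had an adjusted p under 0.05 from edgeR. These 5 are 16.1% of the 31, where 11.4% of all tested genes passed on that scale, and where the groups did not overlap, with Si-LIPG higher, for 51.9% of all tested genes. Without NC replicate 2, NC replicate 3, Si-LIPG replicate 2 or Si-LIPG replicate 3 edgeR called 0 of the 31 and 0 of all tested genes on that scale. In these fits 9 to 18 of the 31 had an unadjusted p under 0.05 from edgeR, and the same 9 to 18 met the criterion of the study. Of all tested genes, 23.7% to 43.1% met the criterion there. Without NC replicate 1 or Si-LIPG replicate 1 edgeR called 9 and 14 of the 31 at an adjusted p under 0.05, against 19.1% and 31.2% of all tested genes.

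Among the hydrolases, 9 of 12 genes were tested, 0 had an adjusted p under 0.05 and 2 met the criterion of the study. CTSB encodes cathepsin B, a cysteine protease of the lysosome, and was counted 30, 88 and 58 times in NC 1, 2 and 3 and 165, 283 and 316 times in Si-LIPG 1, 2 and 3. Its TMM-normalized CPM was 97.3, 158.5 and 91.4 in the NC libraries against 186, 231 and 231 in the Si-LIPG libraries. Each Si-LIPG library was above each NC library, NC 2 being the nearest. The log2 fold change of CTSB was 0.89 (standard error, SE, 0.33, edgeR adjusted p = 0.122), and 2.34 with an adjusted p of 0.0462 from edgeR when scaled to all reads. CTSB missed the criterion without NC replicate 3, Si-LIPG replicate 2 or Si-LIPG replicate 3, with unadjusted p values of 0.0676, 0.0675 and 0.0628 from edgeR. CTSK, a cathepsin best known from bone resorption by osteoclasts, had 38.9, 84.7 and 56.7 CPM in the NC libraries against 85.8, 109 and 126 CPM in the Si-LIPG libraries. NC 2 and Si-LIPG 1 were nearly level. The log2 fold change of CTSK was 0.81 (SE 0.38, edgeR adjusted p = 0.239), and without NC replicate 1 it was 0.61 with an unadjusted p of 0.0960 from edgeR. CTSK met the criterion in 1 of the 6 fits that leave out a library, the fit without NC replicate 2.

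The other tested hydrolases did not meet either rule. SMPD1, the acid sphingomyelinase, had 2, 6 and 20 reads in NC 1, 2 and 3 and 20, 79 and 60 in Si-LIPG 1, 2 and 3, with a log2 fold change of 1.33 (SE 0.63, edgeR adjusted p = 0.242). GAA, which releases glucose from glycogen, had 0, 9 and 30 reads in the NC libraries against 42, 61 and 64 in the Si-LIPG libraries, with a log2 fold change of 1.05 (SE 0.68). Both had an NC library with 20 or 30 reads beside one with 2 or 0, so that the spread within the NC groups was large. LIPA, the acid lipase that frees fatty acids and cholesterol from lipids taken into the lysosome, was counted 0 times in NC 1, which allows up to 3 reads. It had 32 and 26 reads in NC 2 and NC 3 and 43, 78 and 67 in Si-LIPG 1, 2 and 3. As TMM-normalized CPM, LIPA had 0, 57.6 and 41.0 in the NC libraries against 48.5, 63.6 and 48.9 in the Si-LIPG libraries, so that NC 2 lay above Si-LIPG 1 and Si-LIPG 3, and the log2 fold change was 0.62 (SE 0.64). PPT1, which removes fatty acids bound to proteins, and CTSA, which also protects other enzymes of the lumen, had log2 fold changes of 0.43 and 0.17. CTSZ (-0.21) and ASAH1, the acid ceramidase (-0.22), were below 0 after TMM normalization and above 0, at 1.19 and 1.18, when scaled to all reads. GLA had 2 to 17 reads, NEU1 0 to 30 and CTSL 0 to 2, too few to be tested.

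None of the 3 genes of lumenal cofactors met either rule. PSAP had a TMM-normalized CPM of 535, 911 and 830.5 in NC 1, 2 and 3 and of 861, 738 and 746 in Si-LIPG 1, 2 and 3. NC 1 was the lowest library and NC 2 the highest, and the log2 fold change was 0.04 (SE 0.32, edgeR adjusted p = 0.962). NPC2 had 104, 151 and 78.8 CPM in the NC libraries against 206.5, 181 and 128 CPM in the Si-LIPG libraries, with an overlap of NC 2 and Si-LIPG 3 and a log2 fold change of 0.62 (SE 0.35, edgeR adjusted p = 0.345). GRN, the precursor of granulins that regulates lysosomal enzymes, had 25.9, 50.4 and 56.7 CPM in the NC libraries against 105, 57.0 and 63.6 CPM in the Si-LIPG libraries. The groups did not overlap for GRN, although NC 3 and Si-LIPG 2 were nearly equal, and its log2 fold change was 0.71 (SE 0.42, edgeR adjusted p = 0.374).

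LAMP1 and LAMP2 encode the heavily glycosylated proteins that line the inner face of the lysosomal membrane. LAMP2, which also serves chaperone-mediated autophagy, was counted 0, 18 and 14 times in NC 1, 2 and 3 and 22, 85 and 126 times in Si-LIPG 1, 2 and 3. As TMM-normalized CPM it had 0, 32.4 and 22.1 in the NC libraries against 24.8, 69.3 and 92.0 in the Si-LIPG libraries. Si-LIPG 1 lay below NC 2, so the groups overlapped. LAMP2 had a log2 fold change of 1.66 (SE 0.69, edgeR unadjusted p = 0.0290, adjusted p = 0.175), and of 1.21 without NC replicate 1. It missed the criterion without NC replicate 3, Si-LIPG replicate 2 or Si-LIPG replicate 3, with unadjusted p values of 0.0575, 0.0606 and 0.138 from edgeR. LAMP1 was more abundant and more even, with 104, 104.5 and 159 CPM in the NC libraries against 132, 111 and 169 CPM in the Si-LIPG libraries, and a log2 fold change of 0.16 (SE 0.33, edgeR adjusted p = 0.851). The difference between the fold changes of LAMP1 and LAMP2 was not tested.

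The sorting receptors bring new enzymes from the Golgi to the lysosome. SORT1 encodes sortilin, which carries PSAP and other cargo, and passed the filter on low counts only through the Si-LIPG groups. It was counted 0, 4 and 3 times in NC 1, 2 and 3 and 39, 29 and 25 times in Si-LIPG 1, 2 and 3. Every NC library was at or below 7.21 CPM after TMM normalization and every Si-LIPG library at or above 18.3 CPM, with means of 3.98 ± 3.66 (SD, n = 3) and 28.6 ± 13.6 (SD, n = 3). The log2 fold change of SORT1 was 2.63 (SE 0.86, edgeR unadjusted p = 0.00777, adjusted p = 0.0787). Its p values are a description because of that filter. By them SORT1 met the criterion of the study but not the adjusted threshold. Leaving out NC replicate 1 gave 2.23. Leaving out Si-LIPG replicate 1 gave 2.16, where the unadjusted p of 0.0670 from edgeR no longer met the criterion. SORT1 had a log2 fold change of 3.81 with an adjusted p of 0.0462 from edgeR when scaled to all reads, also given as a description. M6PR, the cation-dependent mannose 6-phosphate receptor, had 22.7, 32.4 and 59.9 CPM in the NC libraries against 26.0, 88.8 and 80.4 CPM in the Si-LIPG libraries. Si-LIPG 1 lay within the range of the NC libraries, and the log2 fold change of M6PR was 0.73 (SE 0.51, edgeR adjusted p = 0.472).

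**Figure D3:**
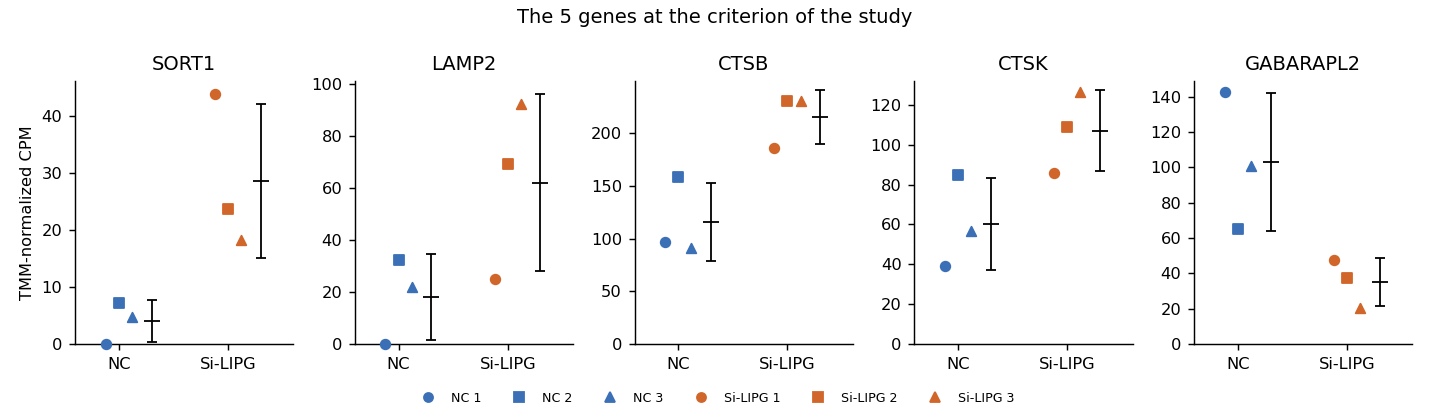
TMM-normalized CPM (vertical axes, from 0) of the 5 genes at the criterion of the study in each NC (blue) and Si-LIPG (orange) library, with the mean and SD of each group in black. SORT1, CTSB and CTSK show no overlap with all Si-LIPG libraries above, LAMP2 overlaps at NC 2 and Si-LIPG 1, and GABARAPL2 lies lower in every Si-LIPG library.

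All 6 proton pump genes with a row were tested and none met either rule. ATP6V0D1, a subunit of the membrane sector, had the highest FPKM of them, with 10.8, 55.1 and 37.7 in NC 1, 2 and 3 and 17.5, 54.0 and 46.8 in Si-LIPG 1, 2 and 3. Libraries of both groups covered nearly the same range, and the log2 fold change was -0.34 (SE 0.52, edgeR adjusted p = 0.777). The largest fitted values were those of ATP6V0A1, which builds the proton path (log2 fold change 1.34, SE 0.84), and of ATP6V1H, a regulatory subunit of the catalytic sector (1.25, SE 0.80). ATP6V0A1 had 2, 8 and 4 reads in the NC libraries against 4, 38 and 47 in the Si-LIPG libraries, so that Si-LIPG 1 was as low as the NC libraries. ATP6V1A and ATP6V1B2 encode the catalytic and the companion subunit of the same sector, and had log2 fold changes of 0.83 and -0.70. ATP6AP1, an accessory subunit, had 0.44.

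Of the factors that control lysosome genes, only TFE3 had enough reads to be tested. TFE3 had a TMM-normalized CPM of 13.0, 39.6 and 74.1 in NC 1, 2 and 3 and of 84.6, 53.0 and 30.7 in Si-LIPG 1, 2 and 3. The groups overlapped over most of their range, and the log2 fold change was 0.33 (SE 0.54, edgeR adjusted p = 0.790). MITF was counted 0, 4 and 2 times in the NC libraries against 12, 16 and 6 times in the Si-LIPG libraries, and TFEB 0, 4 and 2 times and 3, 2 and 1 times. A difference in TFEB was not detectable at this depth.

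The autophagy genes held the call that passed the adjusted threshold. GABARAPL2 belongs to the ATG8 family, small proteins that are attached to the autophagosome membrane and bind cargo receptors and the fusion machinery. It was counted 44, 36 and 64 times in NC 1, 2 and 3 and 42, 46 and 28 times in Si-LIPG 1, 2 and 3, so that the read counts of the groups overlapped before scaling. After TMM normalization it had 143, 64.8 and 101 CPM in the NC libraries against 47.4, 37.5 and 20.5 CPM in the Si-LIPG libraries, each NC library above each Si-LIPG library. GABARAPL2 fell by 1.54 on the log2 scale (SE 0.44, edgeR adjusted p = 0.0485), with means of 102.8 ± 39.0 and 35.1 ± 13.6 CPM (SD, n = 3). Scaled to all reads in the files its log2 fold change was -0.10 (SE 0.54, edgeR adjusted p = 0.891), and the groups overlapped. Without NC replicate 1, NC replicate 2, NC replicate 3, Si-LIPG replicate 2 or Si-LIPG replicate 3 the adjusted p from edgeR was 0.137, 0.0560, 0.0766, 0.243 and 0.283, and the log2 fold change lay between -1.83 and -1.24 over the 6 fits that leave out a single library.

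GABARAP, the founding member of that branch of the ATG8 family, was counted 14, 14 and 12 times in NC 1, 2 and 3 and 38, 72 and 77 times in Si-LIPG 1, 2 and 3. Its TMM-normalized CPM was 45.4, 25.2 and 18.9 in the NC libraries against 42.9, 58.7 and 56.2 in the Si-LIPG libraries, with an overlap of NC 1 and Si-LIPG 1. The log2 fold change of GABARAP was 0.88 (SE 0.47, edgeR adjusted p = 0.321), and 2.49 with an adjusted p of 0.0462 from edgeR when scaled to all reads. The number of GABARAP reads per GABARAPL2 read within a library does not depend on the scaling. It was 0.318, 0.389 and 0.188 in NC 1, 2 and 3 and 0.905, 1.57 and 2.75 in Si-LIPG 1, 2 and 3. Each Si-LIPG library had a higher ratio than each NC library, with means of 0.298 ± 0.102 and 1.74 ± 0.935 (SD, n = 3). This pair was chosen after its values were seen, so the ratio is a description with no test, and it does not say which of the genes moved. GABARAPL1, the third of the branch, had 2, 0 and 19 reads in the NC libraries against 6, 14 and 17 in the Si-LIPG libraries, with a log2 fold change of -0.30 (SE 1.03). The counts and FPKM values imply a gene length of 354 bases for GABARAP and for GABARAPL1 and of 3963 bases for GABARAPL2, so GABARAP had the higher FPKM even where it had fewer reads. A gene model of 354 bases leaves no room for untranslated regions, which bears on the FPKM of GABARAP beside other genes but not on its fold change.

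**Figure D4:**
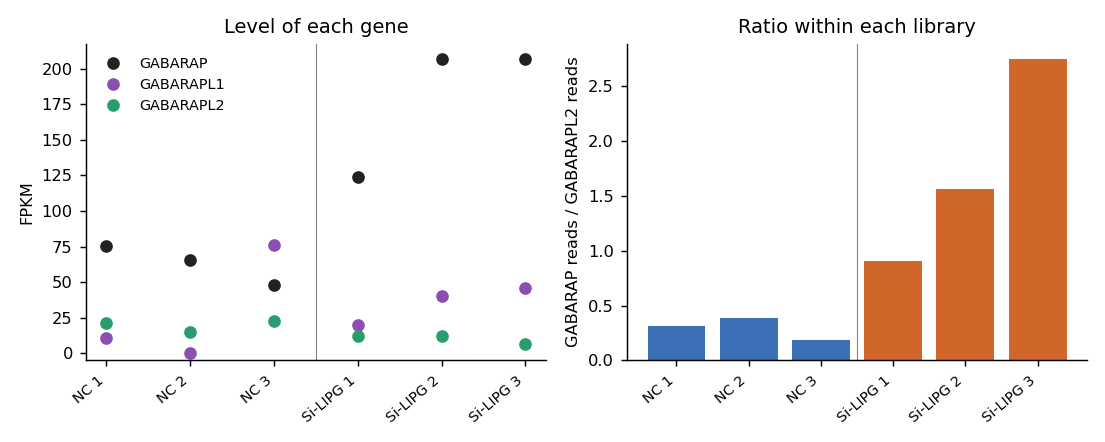
Left, FPKM of GABARAP, GABARAPL1 and GABARAPL2 in each library. Right, number of GABARAP reads per GABARAPL2 read in the same libraries (bars from 0, blue NC, orange Si-LIPG), which is at most 0.389 in the NC libraries and at least 0.905 in the Si-LIPG libraries.

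The other autophagy genes did not meet either rule. SQSTM1 encodes p62, the receptor that links ubiquitin-tagged cargo to ATG8 proteins, and had 30, 27 and 83 reads in NC 1, 2 and 3 and 169, 145 and 218 in Si-LIPG 1, 2 and 3. As TMM-normalized CPM it had 97.3, 48.6 and 131 in the NC libraries against 191, 118 and 159 in the Si-LIPG libraries. NC 3 lay above Si-LIPG 2, and the log2 fold change of SQSTM1 was 0.75 (SE 0.39, edgeR adjusted p = 0.287), and 2.15 with an adjusted p of 0.0462 from edgeR when scaled to all reads. ULK1, the kinase that starts autophagosome formation, had 2, 8 and 0 reads in the NC libraries against 23, 13 and 16 in the Si-LIPG libraries, and its log2 fold change of 1.19 had a standard error of 1.02. ATG16L1, part of the complex that attaches ATG8 proteins to lipid, had 0, 0 and 11 reads and 2, 21 and 24 reads (log2 fold change 0.92, SE 1.19). ATG2A, which transfers lipids to the growing membrane, and WIPI2, which binds the lipid signal on it, had log2 fold changes of 0.23 and -0.30. ATG5 and ATG7, a subunit of that complex and the enzyme that activates ATG8 proteins, had at most 13 and 14 reads in any library and were not tested.

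The rest of the lysosome and autophagy pathway was described by a wider list of 158 further symbols, of which 140 had a row and 72 were tested. Of these, 3 had an adjusted p under 0.05 from edgeR, 1 as higher and 2 as lower, which is 4.17%, against 6.51% of all tested genes. At the criterion of the study there were 8 higher and 7 lower, or 20.8%, against 20.7% of all tested genes, and the median log2 fold change was 0.38 against 0.16. PPP3CB, the catalytic subunit of the phosphatase calcineurin, which acts on TFEB, had 0 reads in each NC library and 33, 17 and 33 in Si-LIPG 1, 2 and 3. Like 4 others of the 72, it passed the filter on low counts only through the Si-LIPG groups, so its adjusted p of 0.0395 from edgeR is given as a description. Against 3 reads in each NC library, its mean level was at least 3.79-fold higher in the Si-LIPG groups. TMEM175, a potassium and proton channel of the lysosome, fell by 1.89 on the log2 scale (SE 0.50, edgeR adjusted p = 0.0400), from 55.1, 66.7 and 42.6 CPM in NC 1, 2 and 3 to 11.3, 16.3 and 16.1 CPM in Si-LIPG 1, 2 and 3. CTSW, a cathepsin of lymphocytes, fell by 1.46 (SE 0.39, edgeR adjusted p = 0.0415), but its read counts were 35, 41 and 55 in the NC libraries against 35, 41 and 36 in the Si-LIPG libraries. When scaled to all reads, TMEM175 and CTSW had log2 fold changes of -0.40 and -0.0047, with adjusted p values of 0.658 and 0.995 from edgeR. Whether the reads counted on TMEM175 and CTSW came from their own transcripts was not tested. Without NC replicate 1, NC replicate 2, Si-LIPG replicate 2 or Si-LIPG replicate 3, 0 of these 72 genes and 0 of all tested genes had an adjusted p under 0.05 from edgeR. In these fits 14, 17, 9 and 11 of the 72 had an unadjusted p under 0.05 from edgeR, as did 1196, 1488, 869 and 844 of all 6574 tested genes. The criterion of the study was met there by 18.1%, 22.6%, 13.2% and 12.8% of all tested genes. Without NC replicate 3 or Si-LIPG replicate 1 there were 8 and 5 of the 72, against 7.62% and 9.86% of all tested genes.

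Position in the genome was described with the RefSeq genes of goat assembly ARS1.2, without coordinates because the build of the files is not given in the sources used here. Of the 33 genes placed on a numbered chromosome, 18 had another gene that overlaps them or lies within 1 kb, and these had a median FPKM of 30.99 over the 6 libraries, against 7.16 for the 15 without such a neighbour. Over the 12861 genes of the files matched in this way, the medians were 5.52 and 1.89. Among the genes with a neighbour were PSAP (CDH23), CTSA (PLTP and NEURL2), CTSK (ARNT), NPC2 (ISCA2), GABARAP (PHF23) and M6PR (KLRG1 and PHC1), and their counts could hold reads of these neighbours. SQSTM1 overlapped C7H5orf45. CTSB, SORT1 and GABARAPL2 had no such neighbour, and LAMP2 was not among the 33 genes placed. The table used gives no strand, so neighbours on the same and on the opposite strand cannot be told apart here. The other 13 listed genes, CTSD, HEXA, TPP1, GUSB, CD63, SCARB2, NPC1, ATP6AP2, BECN1, ATG3, ATG9A, ATG12 and MAP1LC3B, were not analysed here. For GUSB, a row without a symbol carried the accession of its goat protein, with 1, 7 and 0 reads in NC 1, 2 and 3 and 2, 13 and 9 in Si-LIPG 1, 2 and 3, and it was not counted among the 38 genes.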

How the data were processed

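The authors deposited raw counts, 1 file per library with reads per Ensembl gene and 5 rows for reads on no gene, and 1 table of FPKM values of the same genes. The submitters' processing notes name fastp, HISAT2, SAMtools and HTSeq. Versions, build and strand setting are not given in the sources used here. Reads on no gene (97.1% to 99.0% of a library) were left out of library sizes, except in the scaling to all reads. Genes were kept by edgeR's filterByExpr (6574 genes), normalized by TMM and compared by edgeR's quasi-likelihood test (edgeR 4.0.16, limma 3.58.1, DESeq2 1.42.0, R 4.3.3). Standard errors were derived from the F statistic. CPM values used the reads on tested genes and the TMM factors (0.601 in NC 1 to 1.37 in Si-LIPG 3). Intervals from a count of 0 cover counting error only. The procedures were tested on simulated data.

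Genes and lists were chosen with earlier results of these data known. Full values are given for genes that met a call rule or had the highest mean FPKM of their role, counts for those not tested, and statistics for other lysosome and autophagy genes with an adjusted p under 0.05. Further genes given by library (SMPD1, GAA, LIPA, NPC2, GRN, ATP6V0A1, SQSTM1, ULK1, ATG16L1 and GABARAPL1) were chosen after their values were seen. No pair of replicates agreed within sampling noise (chi-square over its degrees of freedom, 4.17 to 13.9). Promoter motifs were not analysed here, since no sequence was used.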

Additional observations from a re-analysis of the deposited data

How the results depend on the processing

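The median difference between the lysosome and autophagy genes and all tested genes kept its sign in all alternatives run, but the counts of calls moved with the scaling, the filter and single libraries. Genes with an adjusted p under 0.05 numbered 1 in the comparison as reported. They were 0 with library sizes alone (1.87% of all tested genes) and with limma on log2(FPKM + 1) or log2(FPKM + 0.1) (0 of all tested genes), where 14, 12 and 9 had an unadjusted p under 0.05, 5 when scaled to all reads (11.4%), 2 with no filter on low counts (4.20%), and 5 of the 10 genes left when each sample had to reach 10 counts, where 25.9% of all tested genes passed. With each library left out they were 0 to 1, and 0 to 14 when also scaled to all reads, an alternative chosen after seeing the data. Genes at the criterion of the study numbered 5 as reported, 14 with library sizes alone (30.2% of all tested genes) and 19 scaled to all reads (46.1%). With DESeq2 they were 4 (11.4%), and 4 with edgeR on DESeq2 size factors (20.3%), in both without CTSK. They were 7 with no filter on low counts (13.8%), and 6 of the 10 genes left when each sample had to reach 10 counts (38.7%). With limma on log2(FPKM + 1) and log2(FPKM + 0.1) they were 12 and 9 (29.1% and 25.4%). They were 2 to 8 with each library left out, and 9 to 19 when also scaled to all reads (17 each if NC 1 or NC 2 was left out, 18 if NC 3 was). The other lysosome and autophagy genes with an adjusted p under 0.05 were 3 as reported (6.51% of all tested genes) and 11 scaled to all reads (11.4%). They were 5 with DESeq2 (4.18%), 5 with no filter (4.20%) and 6 with at least 10 counts (25.9%), and the number of them tested changed with the filter. With limma on either scale they were 0 (24 and 19 at an unadjusted p under 0.05, where 29.1% and 25.4% of all tested genes met the criterion). They were 0 to 8 with each library left out (0 to 9.86% of all tested genes). When also scaled to all reads they were 0 to 20 (0 to 31.2%), with 15 if NC 1 was left out (19.1%). The log2 fold change of GABARAPL2 changed sign only under the scaling to all reads, without NC replicate 3 (0.1873) or without Si-LIPG replicate 3 (0.0391), and DESeq2 gave it an adjusted p of 0.0252. CTSB, CTSK, LAMP2 and SORT1 kept their direction in each alternative that could test them. LAMP2 and SORT1 were not among the 10 genes that reach 10 counts in each sample. The cause of these changes was not tested.

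The correlation of same-numbered deviations from the group means was 0.210, 0.0639 and 0.105 for replicates 1, 2 and 3, low but above 0 in each. The comparison as reported used no pairing by replicate number. Whether libraries with the same number share a batch was not tested. With a replicate block, 3 of the 31 genes had an adjusted p under 0.05 (CTSB, LAMP2 and GABARAPL2), against 14.1% of all tested genes, 9 met the criterion, against 23.6%, and 10 of the other lysosome and autophagy genes had an adjusted p under 0.05. Depth limits most of these values, since 28 of the 38 genes had fewer than 10 reads in at least 1 library.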
